A study of Homo sapiens with 54 samples.

Results

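Mitosis and G2/M genes were followed in HepG2 cells, an established human liver carcinoma line, treated with 1 of 7 compounds, or with dimethyl sulfoxide (DMSO), the solvent, as control. The group was set by a list of 45 Ensembl gene IDs naming mitotic cyclins and kinases, the spindle checkpoint, kinesins, kinetochore, spindle, cytokinesis and chromosome factors, and 44 of the 45 were measured among the 20056 rows of the expression table. Doses in micromolar were 35 for 2-nitrofluorene, 114 for methapyrilene hydrochloride, 45 for piperonyl butoxide, 95 for clonidine and 420 for nifedipine, and in millimolar 2.1 for tolbutamide and 10 for NNK, the tobacco-specific nitrosamine that the labels give by its full chemical name. Every group, the control included, held 0.5% DMSO. RNA was taken after 24 or 48 h from 3 biological replicates of each compound and time, and DMSO was run as 2 exposures of 3 replicates at each time. 2-nitrofluorene and NNK are known as genotoxic carcinogens, methapyrilene and piperonyl butoxide as rodent liver carcinogens that do not act on DNA directly, and clonidine, nifedipine and tolbutamide as medicines not classed as carcinogens. All groups were 1 tumour cell line at 1 dose per compound, so neither dose nor cell type could be compared.

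Genes of mitosis are transcribed in waves that follow the cell cycle. In resting cells and in early G1 the DREAM repressor complex holds many of them off through a promoter element known as the CHR; in S phase and G2 the B-MYB-MuvB complex, the forkhead factor FOXM1 and NF-Y, which binds the CCAAT box, raise them, so that cyclin B with CDK1, the Aurora and Polo kinases, motor proteins and checkpoint factors peak as the cell enters mitosis. The level of this programme in a culture is widely used as a readout of proliferation, and a cell line that grows in culture expresses it strongly. In RNA from whole cultures, fewer cells in G2 or mitosis and less of these RNAs per cell cannot be told apart.

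Each RNA sample was hybridised to a single-channel Affymetrix array, and values are the deposited log2 expression levels, in which a difference of 1 is a 2-fold difference. The 54 arrays had medians between 5.70 and 6.21. In 50 of them the spread of values over genes followed that of the average array, with slopes of 0.965 to 1.04 on the mean of all arrays. The other 4 had a narrower spread, with slopes of 0.911 for DMSO at 24 h (exposure 2, replicate 2), 0.798 for NNK at 24 h (replicate 2), 0.858 for piperonyl butoxide at 24 h (replicate 2) and 0.678 for piperonyl butoxide at 48 h (replicate 1). These are called low-spread arrays here, and counts are given with and without them. Calls of single genes are with all arrays unless stated otherwise. Differences were tested for every row with limma, with p-values adjusted over all 20056 rows by the Benjamini-Hochberg method, and a gene was called changed at an adjusted p under 0.05.

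**Figure D1:**
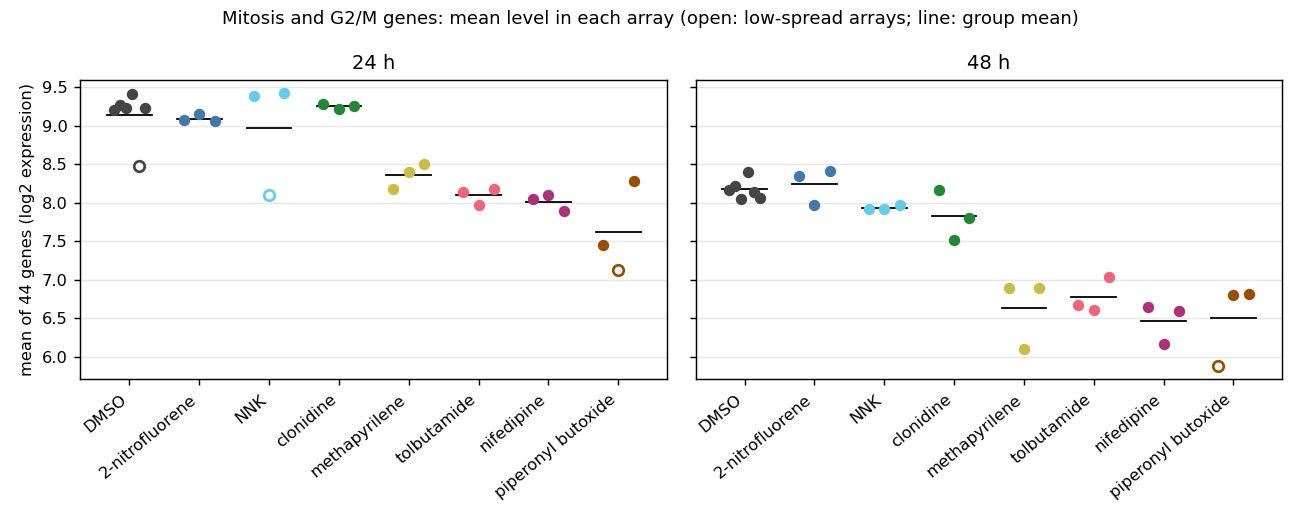
Mean log2 expression of the 44 mitosis and G2/M genes (vertical axis) in each array by compound at 24 h (left) and 48 h (right); points are arrays, open points the 4 low-spread arrays, and lines group means. The DMSO arrays lie between 8.48 and 9.41 at 24 h and between 8.05 and 8.39 at 48 h, and all arrays of methapyrilene, tolbutamide, nifedipine and piperonyl butoxide lie below the DMSO mean of their time.

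In solvent alone the programme stood lower on the second day. The mean over the 44 genes was 9.14 ± 0.33 (SD, n = 6 arrays) at 24 h and 8.17 ± 0.13 (SD, n = 6) at 48 h in DMSO, and every 48 h array lay below every 24 h array. All 44 genes had a lower mean at 48 h, with a median difference of -0.97 (1.95-fold lower), while the median over all rows was 0.01. KIF20A (ENSG00000112984), a kinesin that carries passenger proteins to the central spindle for cytokinesis, ranged from 9.58 to 9.86 with a median of 9.65 over the 6 arrays at 24 h and from 7.96 to 8.62 with a median of 8.34 at 48 h. Its groups did not overlap, and it fell 2.57-fold (SE of the log2 difference 0.12, adjusted p = 0.0391). CENPE (ENSG00000138778), the kinetochore kinesin that pulls chromosomes to the metaphase plate, ranged from 8.84 to 9.05 with a median of 8.96 at 24 h and from 7.42 to 7.96 with a median of 7.75 at 48 h and fell 2.30-fold (adjusted p = 0.0391). AURKB (ENSG00000178999), the kinase that corrects wrong attachments of chromosomes to the spindle, fell 2.08-fold (adjusted p = 0.0391).

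These 3 genes were the members called in the comparison of times in DMSO, made on the 2 exposures averaged by replicate number, and 0.015% of all rows were called lower. Without regard to the test, 23 of the 44 members had non-overlapping groups, against 0.768% of all rows. The count of called members depended on single arrays. It was 30 when the low-spread DMSO array at 24 h was left out (0.538% of all rows called lower) and 0 when any of 6 other DMSO arrays was (exposure 1 replicates 1 and 2 or exposure 2 replicate 1 at 24 h, and exposure 1 replicate 2 or exposure 2 replicates 1 and 3 at 48 h). It was also 0 with the replicate number as a block (adjusted p = 0.16 for all 3), and 27 with all 54 arrays in 1 fit. That last fit took the 2 exposures of a number as separate samples. The shares of all rows in the fits with 0 or 27 called members are not given. The mean over the members was lower at 48 h than at 24 h in each of the 7 compound groups as well, in every array. The 2 DMSO exposures of the same time gave no called member by limma at either time. An unadjusted p under 0.05 in this limma comparison was reached by 1 of the 44 members at each time. Of all 20056 rows, 271 passed this threshold at 24 h and 1037 at 48 h.

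Of the 7 compounds, methapyrilene, tolbutamide, nifedipine and piperonyl butoxide gave lower levels of mitosis genes than DMSO of the same time, and no member was called higher in any of these comparisons. Methapyrilene, an older antihistamine, lowered 16 of the 44 members at 24 h and 40 at 48 h, while 0.907% and 2.64% of all rows were called lower. Its median member difference was -0.79 (1.73-fold lower) at 24 h and -1.55 (2.92-fold lower) at 48 h. Tolbutamide, a sulfonylurea used in diabetes, lowered 23 members at 24 h, with 1.16% of all rows, and 37 at 48 h, with 1.6% of all rows. The medians were -1.03 (2.04-fold lower) and -1.43 (2.70-fold lower).

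Nifedipine, a calcium channel blocker, lowered 28 members at 24 h and 42 at 48 h, and 4.65% and 3.34% of all rows were called lower. Its median differences were -1.15 (2.23-fold lower) and -1.68 (3.21-fold lower). Piperonyl butoxide, a synergist added to insecticides that inhibits cytochromes P450, lowered 40 members at each time, among 15.1% of all rows at 24 h and 20.6% at 48 h. Its medians were -1.50 (2.84-fold lower) at both times, and the median over all rows was 0.10 at 24 h and 0.21 at 48 h, whereas for the other 3 compounds it lay between -0.06 and 0.03. The 8 comparisons share DMSO arrays within each time, so that their values stand side by side and are not independent of each other.

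The arrays themselves showed how far the groups were apart. With methapyrilene all 3 arrays lay below all 6 DMSO arrays for 20 members at 24 h (2.5% of all rows) and 40 at 48 h (5.32%). For tolbutamide these counts were 26 at 24 h (2.2%) and 41 at 48 h (3.77%). For nifedipine they were 28 at 24 h (5.62%) and 42 at 48 h (5.06%), and for piperonyl butoxide 27 at 24 h (9.49%) and 34 at 48 h (12.7%).

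**Figure D2:**
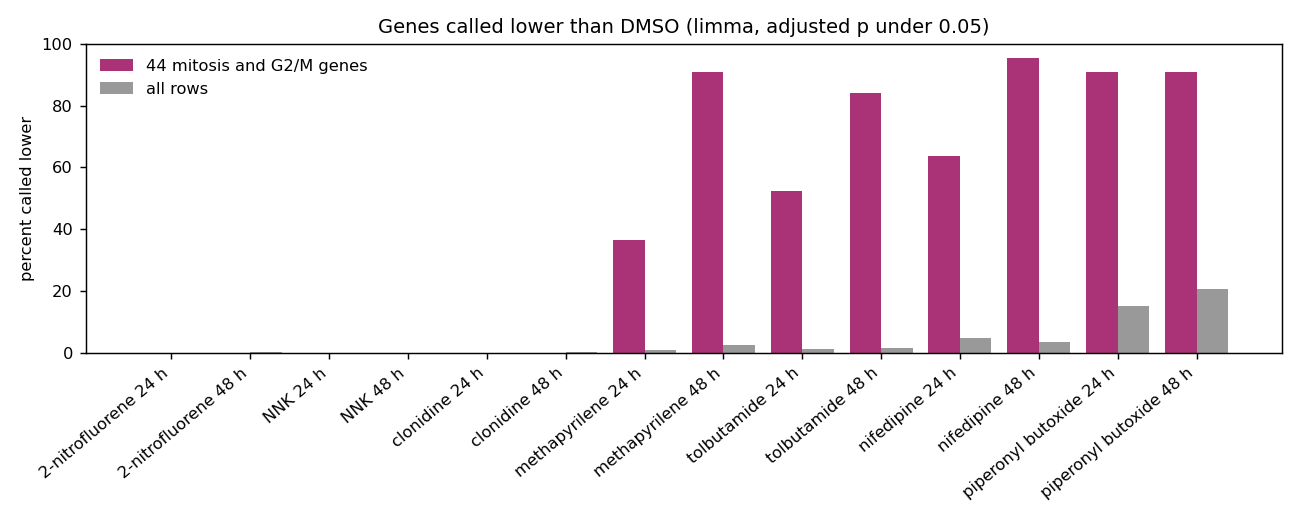
Percent of the 44 mitosis and G2/M genes (purple bars) and of all rows of the table (grey bars) called lower than DMSO in each comparison by limma at an adjusted p under 0.05. The purple bars stand at 0 for 2-nitrofluorene, NNK and clonidine and between 36.4 and 95.5 for the other 4 compounds.

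Leaving out the 4 low-spread arrays raised most of these counts. Without them methapyrilene lowered 38 members at 24 h (2.48% of all rows) and 44 at 48 h (6.0%), tolbutamide 43 (3.12%) and 44 (3.62%), and nifedipine 44 at both times (8.03% and 7.28%). Piperonyl butoxide then lowered 42 members at 24 h (16.9% of all rows) and 36 at 48 h (18.9%). Of the 44 members 31 were then called in all 8 comparisons and the others in 5 to 7, so that counts by role and statements below that a gene was not called hold with all arrays only, except where the value without the low-spread arrays is given. The share of all rows called in all 8 comparisons is not given. For piperonyl butoxide at 48 h, CEP55, ECT2, PRC1, CDCA8 and BUB1 were called with all arrays and not without these, and PLK1 the other way round. The count for methapyrilene at 24 h was 10 without replicate 1 of that group, and for no other of these 8 comparisons did leaving out a single array move the count by over 1.5 times. The shares of all rows in the fits with a single array left out are not given.

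The promoters of the genes the results turn on are shown for the letters known from the CHR and CCAAT elements. The stretches run over 150 bases up to the annotated start in the RefSeq promoter table (GRCh38.p14), 5′ to 3′ on the strand of the gene, and capitals mark CHR letters (TTTGAA or TTTAAA) and CCAAT, each on either strand. CCNB1 (chr5:69167000-69167149, plus strand), CCNB2 (chr15:59104996-59105145, plus), PLK1 (chr16:23678739-23678888, plus) and CDC20 (chr1:43358831-43358980, plus) encode cyclins B1 and B2, Polo-like kinase 1 and the activator of the anaphase-promoting complex. KIF20A (chr5:138178962-138179111, plus) and KIF11 (chr10:92592980-92593129, plus) encode the kinesins with the largest decreases, and BUB1 (chr2:110678064-110678213, minus) is a checkpoint gene without CHR letters in its window.
CCNB1: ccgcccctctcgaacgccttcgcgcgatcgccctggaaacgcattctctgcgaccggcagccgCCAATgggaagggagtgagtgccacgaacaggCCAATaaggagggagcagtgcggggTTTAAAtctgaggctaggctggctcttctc
CCNB2: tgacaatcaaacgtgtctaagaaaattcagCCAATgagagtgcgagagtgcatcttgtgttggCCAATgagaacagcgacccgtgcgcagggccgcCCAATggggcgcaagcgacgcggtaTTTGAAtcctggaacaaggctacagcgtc
PLK1: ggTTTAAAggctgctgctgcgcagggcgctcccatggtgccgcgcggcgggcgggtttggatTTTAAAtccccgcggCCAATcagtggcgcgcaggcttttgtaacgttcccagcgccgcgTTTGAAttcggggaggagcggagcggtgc
CDC20: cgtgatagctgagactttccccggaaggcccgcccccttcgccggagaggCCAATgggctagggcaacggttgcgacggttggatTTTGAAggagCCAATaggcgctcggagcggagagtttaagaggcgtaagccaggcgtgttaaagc
KIF20A: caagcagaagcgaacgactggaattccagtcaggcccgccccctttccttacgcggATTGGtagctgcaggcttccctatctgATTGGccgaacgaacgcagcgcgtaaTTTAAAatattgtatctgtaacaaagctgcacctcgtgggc
KIF11: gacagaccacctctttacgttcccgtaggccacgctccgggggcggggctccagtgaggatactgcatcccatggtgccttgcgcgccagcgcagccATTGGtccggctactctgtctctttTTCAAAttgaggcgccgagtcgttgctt
BUB1: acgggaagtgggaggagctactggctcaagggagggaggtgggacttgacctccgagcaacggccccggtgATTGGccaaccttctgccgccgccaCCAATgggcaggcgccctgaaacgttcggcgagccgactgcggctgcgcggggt
A RefSeq promoter window of 300 bases, from 250 before to 50 after the start, was at hand for 37 of the 44 measured members. CHR letters were found in 32 of the 37 (86.5%), against 24.7% of 15843 protein-coding genes. CCAAT was found in 30 members (81.1%, against 42.1%), and both in 26 (70.3%, against 10.4%). E2F factors are known to bind letters such as TTGGCGC, and the search on either strand took this string, the string TTCCCGC, the string TTGCCGC and the string TTCGCGC. One of them was found in 13 (35.1%, against 20.5%); the first string can share its TTGG with a CCAAT read on the other strand. The 5 members without CHR letters were CCNA2, BUB1, AURKB, MELK and NEK2. No window was at hand for UBE2C, FOXM1, PBK, TTK, TPX2, AURKA and BIRC5. These matches describe letters in a window and are not measurements of binding. The stretches printed for KIF11 and CDC20, which had the largest and the smallest decrease with piperonyl butoxide at 48 h, both hold CHR letters and CCAAT.

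**Figure D3:**
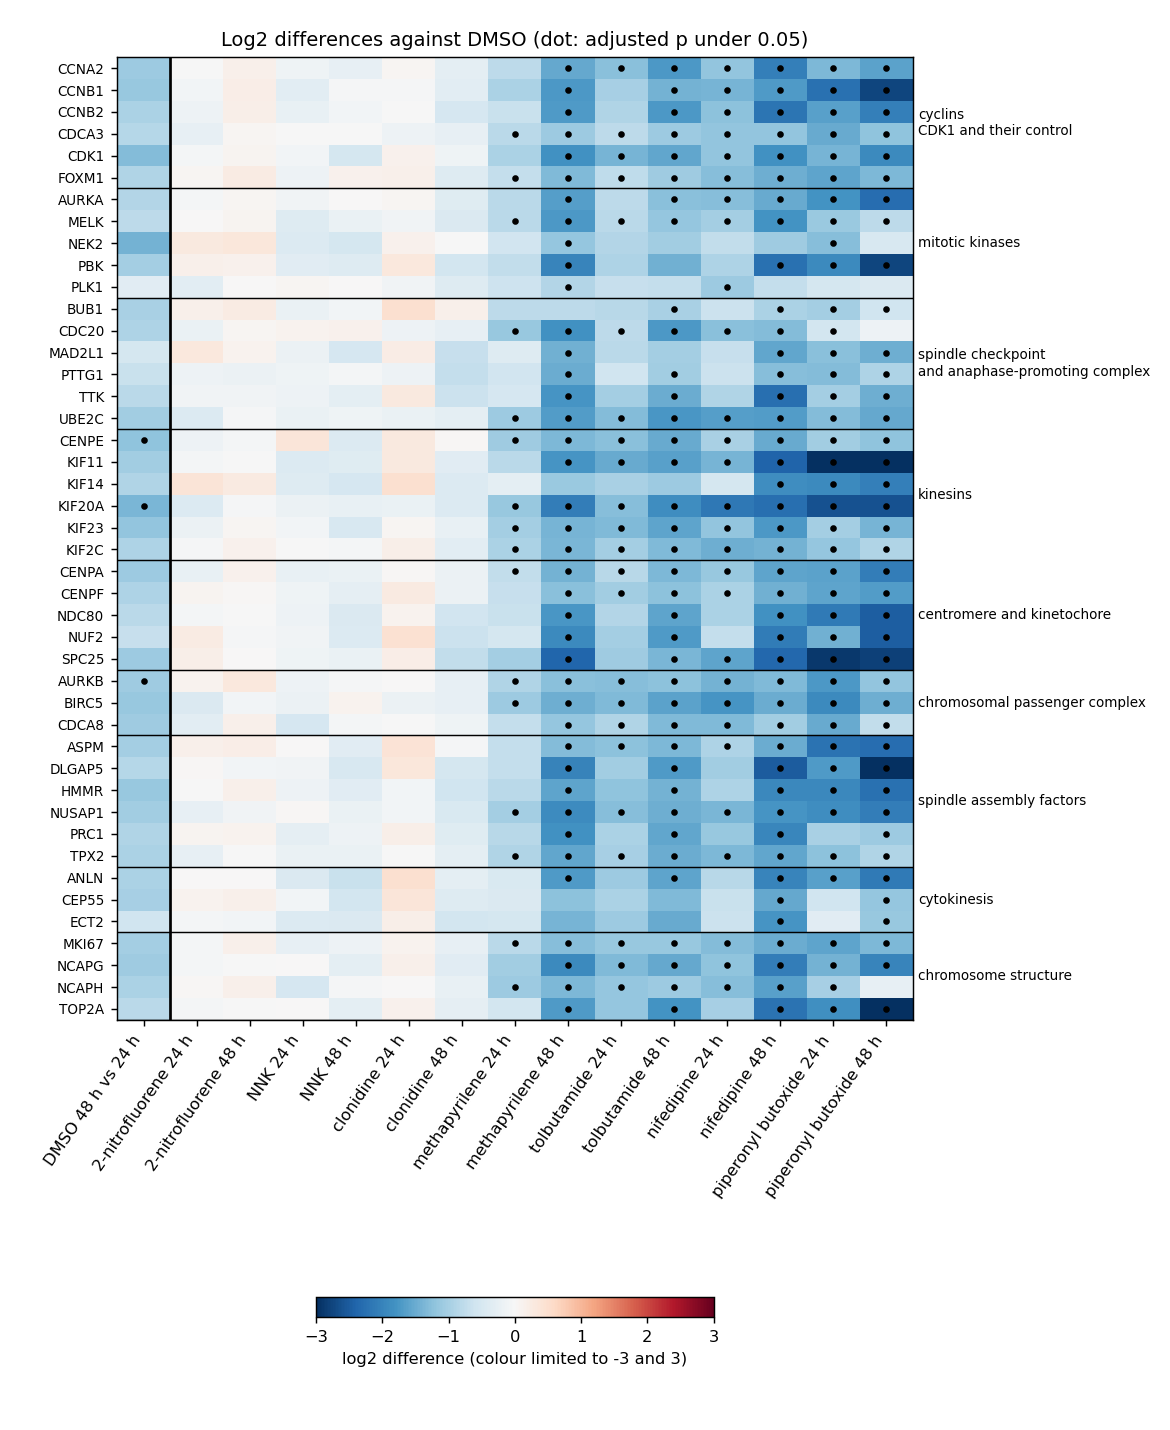
Log2 differences of the 44 genes (rows, grouped by role) in DMSO at 48 h against 24 h (first column) and in each compound against DMSO of the same time (other columns); blue is lower, red higher, colours are limited to -3 and 3, and dots mark an adjusted p under 0.05 by limma. Dots fill most of the 8 columns of methapyrilene, tolbutamide, nifedipine and piperonyl butoxide, and none stands in the 6 columns of the other compounds.

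Cyclins, CDK1 and their control formed the first role group. CCNB1 (ENSG00000134057), which encodes cyclin B1, the partner that activates CDK1 at entry into mitosis, ranged from 8.93 to 9.91 with a median of 9.74 in the 6 DMSO arrays at 24 h. It read 8.14, 8.20 and 8.29 in the 3 arrays with nifedipine and 7.33, 6.27 and 8.47 with piperonyl butoxide. All 6 arrays lay below those of DMSO, and CCNB1 fell 2.62-fold with nifedipine (SE 0.31, adjusted p = 0.00235) and 4.75-fold with piperonyl butoxide (SE 0.31, adjusted p = 3.01e-07). At 48 h the DMSO arrays ranged from 8.17 to 8.72 with a median of 8.47. The compound arrays then read 6.87, 6.38 and 6.96 with methapyrilene, 7.18, 6.79 and 7.15 with tolbutamide, 6.86, 6.54 and 6.91 with nifedipine and 4.81, 6.06 and 6.29 with piperonyl butoxide. None overlapped DMSO, and the fall was 3.32-fold, 2.69-fold, 3.25-fold and 6.71-fold in that order (adjusted p at most 0.00458). The value of 4.81 is the low-spread array. Without replicate 2 of tolbutamide the adjusted p of CCNB1 there was 0.0524, and without the 4 such arrays the fall with piperonyl butoxide was 4.64-fold.

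CDK1 (ENSG00000170312), the kinase that drives mitosis, ranged from 8.24 to 9.72 with a median of 9.46 in DMSO at 48 h. It read 7.82, 6.73 and 7.60 with methapyrilene, 7.72, 7.73 and 7.46 with tolbutamide, 7.66, 7.01 and 7.44 with nifedipine and 6.16, 8.14 and 7.55 with piperonyl butoxide. Every one of these 12 arrays lay below the lowest DMSO array, although that array stood apart from the DMSO median by more than 1 log2 unit, and CDK1 fell between 2.94-fold (tolbutamide) and 3.75-fold (piperonyl butoxide; adjusted p at most 0.00239). Without the low-spread arrays the latter was 2.28-fold. At 24 h its calls with tolbutamide and nifedipine rested on single arrays, with adjusted p-values up to 0.0798 and 0.119 when 1 array of the compound was left out. FOXM1 (ENSG00000111206), the transcription factor that raises many of these genes in G2, was called in all 8 comparisons, from 1.63-fold lower with methapyrilene at 24 h (adjusted p = 0.0219) to 3.02-fold lower with piperonyl butoxide at 24 h (adjusted p = 2.43e-09). With methapyrilene at 24 h its arrays read 7.83, 7.51 and 8.16, of which the last lay above the low-spread DMSO array at 7.99, and the call was lost without replicate 1 (adjusted p = 0.195) or replicate 2 (adjusted p = 0.234) of that group. The call with tolbutamide at 24 h was lost in the same way without its replicate 1 (adjusted p = 0.0951) or 3 (adjusted p = 0.155).

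The other members of the group were CCNA2 (ENSG00000145386, cyclin A2 of S phase and G2), CCNB2 (ENSG00000157456, cyclin B2) and CDCA3 (ENSG00000111665, an adaptor that helps degrade the CDK1 inhibitor WEE1). All 6 members fell with each of the 4 compounds at 48 h and with piperonyl butoxide and nifedipine at 24 h. CDCA3 was called in all 8 comparisons, at most 2.83-fold lower (piperonyl butoxide, 24 h). At 24 h 2 of 6 fell with methapyrilene and 4 of 6 with tolbutamide. CCNB2 fell 4.56-fold with nifedipine at 48 h (adjusted p = 1.66e-07) and 3.30-fold with tolbutamide, as CCNA2 did with tolbutamide (3.30-fold, adjusted p = 3.58e-05).

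The mitotic kinases responded less evenly. AURKA (ENSG00000087586), the kinase of the spindle poles, fell in the 4 comparisons at 48 h and with nifedipine and piperonyl butoxide at 24 h, between 2.40-fold (tolbutamide, 48 h; adjusted p = 5.99e-04) and 4.87-fold (piperonyl butoxide, 48 h; adjusted p = 2.43e-10, and 3.12-fold without the low-spread arrays). PLK1 (ENSG00000166851), which drives centrosome maturation and mitotic entry, was called in 2 of the 8 comparisons with all arrays and in 6 without the low-spread ones (not with methapyrilene or tolbutamide at 24 h). In DMSO it ranged from 6.08 to 6.92 with a median of 6.60 at 24 h, and with nifedipine it read 5.65, 5.43 and 5.37. Those 3 arrays lay below the 6 of DMSO, and PLK1 fell 2.15-fold (adjusted p = 0.00217). At 48 h its DMSO arrays ranged more widely, from 5.47 to 6.78 with a median of 6.38, and the methapyrilene arrays at 5.46, 5.34 and 5.31 lay just below them (1.84-fold lower, adjusted p = 0.0224, 0.0758 with no replicate block, and up to 0.229 when 1 of its arrays was left out). The arrays with piperonyl butoxide read 6.79, 5.60 and 5.06 and overlapped DMSO (log2 difference -0.44, 95% interval -0.93 to 0.05). The highest of them is the low-spread array, and without the 4 low-spread arrays PLK1 was 1.90-fold lower (adjusted p = 0.00119).

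MELK (ENSG00000165304), a kinase tied to FOXM1 and dividing cells, fell in all 8 comparisons, between 1.71-fold and 3.47-fold. PBK (ENSG00000168078), a kinase active in mitosis, fell 3.97-fold with methapyrilene, 4.75-fold with nifedipine and 6.80-fold with piperonyl butoxide at 48 h (adjusted p at most 0.00264), the last 3.64-fold without the low-spread arrays. Without replicate 2 of methapyrilene at 48 h its adjusted p there was 0.0656. NEK2 (ENSG00000117650), which splits the centrosomes, was called with methapyrilene at 48 h (2.22-fold lower, adjusted p = 0.0456) and piperonyl butoxide at 24 h (2.41-fold lower, adjusted p = 0.00544). In all, 5 of the 5 kinases fell with methapyrilene at 48 h, 4 with piperonyl butoxide at 24 h, 3 with nifedipine at each time and piperonyl butoxide at 48 h, 2 with tolbutamide at 48 h, and 1 with methapyrilene or tolbutamide at 24 h.

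Among the spindle checkpoint and anaphase-promoting complex genes, CDC20 (ENSG00000117399), the activator of the anaphase-promoting complex, divided the compounds. At 48 h it ranged from 8.61 to 9.71 with a median of 9.13 in DMSO. It read 7.60, 6.91 and 7.47 with methapyrilene, 7.31, 7.09 and 7.84 with tolbutamide and 7.62, 7.61 and 8.30 with nifedipine, all below DMSO. It read 9.06, 8.92 and 8.96 with piperonyl butoxide, within the range of DMSO. The first 3 compounds lowered it 3.50-fold, 3.30-fold and 2.45-fold (adjusted p at most 2.36e-07), and the difference with piperonyl butoxide was -0.16 (95% interval -0.48 to 0.16, adjusted p = 0.386). At 24 h CDC20 fell with all 4, 2.19-fold with methapyrilene (adjusted p = 1.53e-05) and 1.47-fold with piperonyl butoxide (adjusted p = 0.00618), the latter not called after quantile normalization (adjusted p = 0.114) or without replicate 1 (adjusted p = 0.0716).

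BUB1 (ENSG00000169679), a checkpoint kinase at the kinetochore, was called in 4 of 8 comparisons, between 1.52-fold lower (piperonyl butoxide at 48 h, adjusted p = 0.0386) and 2.02-fold lower (piperonyl butoxide at 24 h, adjusted p = 0.00181). Each of these 4 calls was lost when 1 array of the compound was left out, with adjusted p-values between 0.0582 and 0.414, and without the low-spread arrays BUB1 was 1.27-fold lower with piperonyl butoxide at 48 h (adjusted p = 0.236). UBE2C (ENSG00000175063), the ubiquitin-conjugating enzyme of the anaphase-promoting complex, fell in all 8, from 2.11-fold with methapyrilene at 24 h to 3.36-fold with tolbutamide at 48 h (adjusted p at most 1.40e-04). TTK (ENSG00000112742), the kinase that starts checkpoint signalling, fell 4.83-fold with nifedipine at 48 h (adjusted p = 2.52e-05). MAD2L1 (ENSG00000164109), the checkpoint protein MAD2, and PTTG1 (ENSG00000164611), the separase inhibitor securin, were called in 4 and 5 comparisons, with the largest decreases in nifedipine (2.94-fold) and methapyrilene (2.79-fold) at 48 h, and the row for BUB1B (ENSG00000156970) was not analysed here. Of the 6 measured members 6 fell with nifedipine at 48 h and piperonyl butoxide at 24 h, 5 with methapyrilene, tolbutamide and piperonyl butoxide at 48 h, and 2 with each of the other 3 at 24 h.

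The kinesins held the largest decrease of any member, that of KIF11 with piperonyl butoxide. KIF20A was called in all 8 comparisons. At 24 h, where the DMSO arrays ranged from 9.58 to 9.86 with a median of 9.65, it read 8.43, 8.42 and 8.76 with methapyrilene, 8.42, 8.25 and 8.54 with tolbutamide, 7.35, 7.48 and 7.77 with nifedipine and 6.79, 6.86 and 7.55 with piperonyl butoxide. No array of the 4 compounds overlapped DMSO, and those of piperonyl butoxide and nifedipine stood below the other 2 compounds. The fall at 24 h was 2.22-fold with methapyrilene, 2.43-fold with tolbutamide, 4.43-fold with nifedipine and 6.14-fold with piperonyl butoxide (SE 0.15 in each, adjusted p at most 5.86e-06). At 48 h it was 4.18-fold, 3.61-fold, 4.79-fold and 6.12-fold.

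KIF11 (ENSG00000138160), the motor that pushes the spindle poles apart, ranged from 7.82 to 8.58 with a median of 8.09 in DMSO at 48 h. It read 6.46, 5.61 and 7.02 with methapyrilene, 6.25, 6.38 and 6.89 with tolbutamide, 6.25, 5.30 and 5.61 with nifedipine and 3.79, 4.44 and 4.16 with piperonyl butoxide. None of the 12 arrays overlapped DMSO, and those of piperonyl butoxide lay below all others. These last values were also below every array median (5.70 to 6.21), toward the lowest value of all rows (2.45). How far low signal affects the size of this decrease was not tested. KIF11 fell 3.41-fold, 3.09-fold, 5.32-fold and 16-fold (SE 0.34 in each, adjusted p at most 0.00265), and 13.6-fold with piperonyl butoxide without the low-spread arrays. At 24 h it fell 8.58-fold with piperonyl butoxide (adjusted p = 2.00e-09), 2.84-fold with tolbutamide (adjusted p = 0.00726, but 0.0813 without replicate 1 and 0.0858 without replicate 3) and 2.63-fold with nifedipine (adjusted p = 0.00530).

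CENPE fell in all 8 comparisons, between 1.98-fold (nifedipine, 24 h) and 2.86-fold (tolbutamide, 48 h). Its call with nifedipine at 24 h was lost without replicate 2 (adjusted p = 0.0609), and that with methapyrilene at 24 h without replicate 1 (adjusted p = 0.0606) or 3 (adjusted p = 0.0523). KIF23 (ENSG00000137807), a motor of the central spindle, and KIF2C (ENSG00000142945), which takes microtubules apart at the kinetochore, also fell in all 8, with up to 3.29-fold (nifedipine, 48 h) and 2.75-fold (nifedipine, 24 h). KIF14 (ENSG00000118193), a motor needed to finish cytokinesis, was called in 3 of 8 (in 7 without the low-spread arrays), with piperonyl butoxide at both times (3.74-fold and 4.15-fold lower) and nifedipine at 48 h (3.66-fold lower). All 6 kinesins fell with nifedipine at 48 h and with piperonyl butoxide at both times, 5 with methapyrilene and tolbutamide at 48 h and with nifedipine and tolbutamide at 24 h, and 4 with methapyrilene at 24 h.

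**Figure D4:**
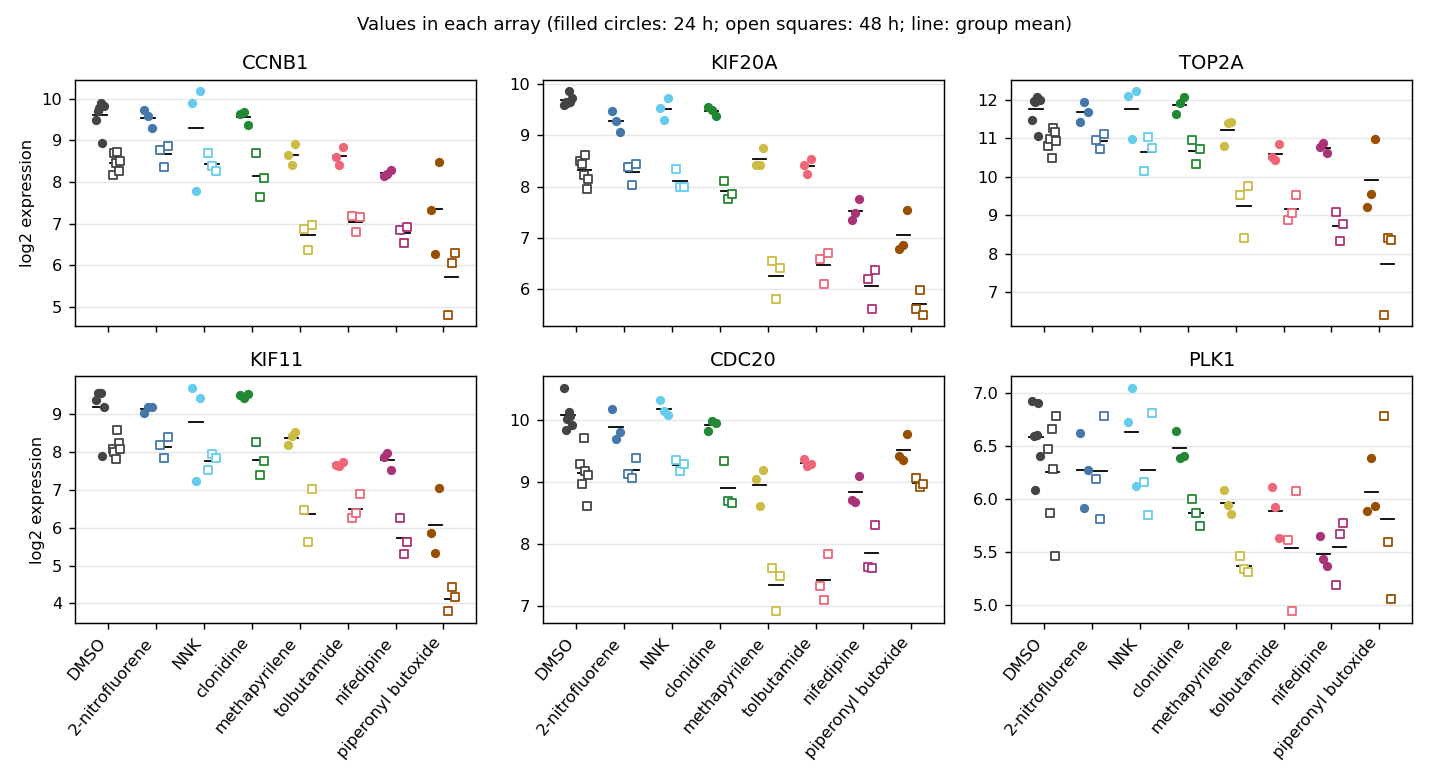
Log2 expression (vertical axes) of 6 genes in each array by compound; filled circles are 24 h, open squares 48 h, and lines group means. KIF20A and KIF11 lie below DMSO with methapyrilene, tolbutamide, nifedipine and piperonyl butoxide at 48 h, CDC20 with piperonyl butoxide at 48 h stays within the DMSO range of 8.61 to 9.71, and the PLK1 arrays of most groups overlap DMSO.

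Of the centromere and kinetochore genes, SPC25 (ENSG00000152253), a subunit of the NDC80 complex that binds microtubules, fell most at 48 h with methapyrilene, nifedipine and piperonyl butoxide. In DMSO at 48 h it ranged from 6.57 to 7.48 with a median of 6.94. It read 5.23, 3.62 and 5.03 with methapyrilene, 5.76, 5.09 and 6.06 with tolbutamide, 4.98, 4.21 and 4.79 with nifedipine and 4.08, 4.37 and 4.14 with piperonyl butoxide. All lay below DMSO, with decreases of 5.18-fold, 2.58-fold, 5.08-fold and 6.99-fold (adjusted p at most 0.0152). The values with methapyrilene, nifedipine and piperonyl butoxide were below every array median (5.70 to 6.21), and an effect of low signal on these sizes was not tested. The call with tolbutamide was lost without its replicate 1 (adjusted p = 0.106) or 2 (adjusted p = 0.123). At 24 h SPC25 was 7.39-fold lower with piperonyl butoxide (adjusted p = 7.94e-09) and 2.98-fold lower with nifedipine (adjusted p = 0.00136). CENPF (ENSG00000117724), a large protein of the outer kinetochore, fell in 7 of 8 comparisons, between 1.94-fold (nifedipine, 24 h; adjusted p = 0.0117) and 3.19-fold (piperonyl butoxide, 48 h; adjusted p = 1.19e-06). At 24 h its calls with nifedipine and tolbutamide were lost without replicate 3 of the compound (adjusted p = 0.13 and 0.272), and at 48 h that with tolbutamide without replicate 1 (adjusted p = 0.0602). Centring the arrays took both 24 h calls past the threshold (adjusted p = 0.0588 and 0.0672), and quantile normalization that with tolbutamide (adjusted p = 0.0532).

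NDC80 (ENSG00000080986) and NUF2 (ENSG00000143228), the partners of SPC25, were called in the same comparisons as each other, all 4 at 48 h and piperonyl butoxide at 24 h. NUF2 fell 3.77-fold with methapyrilene at 48 h (adjusted p = 0.00496), a call lost without replicate 2 of that group (adjusted p = 0.152). NDC80 fell 4.32-fold with piperonyl butoxide at 24 h (adjusted p = 7.20e-06). CENPA (ENSG00000115163), the histone variant that marks the centromere, fell in all 8, up to 4.21-fold with piperonyl butoxide at 48 h. All 5 genes fell with each of the 4 compounds at 48 h and with piperonyl butoxide at 24 h, against 3 with nifedipine, 2 with tolbutamide and 1 with methapyrilene at 24 h.

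The chromosomal passenger complex was lower as a whole, with 3 of its 3 measured genes called in all comparisons but methapyrilene at 24 h, where 2 were. AURKB ranged from 7.83 to 8.09 with a median of 7.94 in DMSO at 24 h and read 6.87, 6.90 and 7.34 with methapyrilene, 6.47, 6.74 and 6.80 with tolbutamide, 6.48, 6.47 and 6.63 with nifedipine and 6.07, 6.30 and 6.32 with piperonyl butoxide. No array overlapped DMSO, and AURKB fell 1.88-fold, 2.43-fold, 2.68-fold and 3.29-fold (SE 0.13 in each, adjusted p at most 1.65e-05). BIRC5 (ENSG00000089685), survivin, which targets the complex to the centromere, fell 2.14-fold, 2.51-fold, 3.42-fold and 3.75-fold at 24 h in the same order. CDCA8 (ENSG00000134690), borealin, fell in 7 of 8, all but methapyrilene at 24 h (1.65-fold lower, adjusted p = 0.0877, and 3.26e-05 without the low-spread arrays). With piperonyl butoxide at 48 h it was 1.67-fold lower (adjusted p = 0.00518), and without the low-spread arrays 1.27-fold lower (adjusted p = 0.0653).

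Among the spindle assembly factors, TPX2 (ENSG00000088325), which activates AURKA and seeds microtubules around the chromosomes, fell in all 8 comparisons. In DMSO at 48 h it ranged from 9.42 to 9.98 with a median of 9.65, and it read 8.45, 7.61 and 8.27 with methapyrilene, 8.13, 8.03 and 8.41 with tolbutamide, 8.14, 8.02 and 8.19 with nifedipine and 8.60, 8.75 and 9.0 with piperonyl butoxide. All 12 arrays lay below DMSO, those of piperonyl butoxide nearest to it, and TPX2 fell 2.97-fold, 2.80-fold, 2.96-fold and 1.86-fold (adjusted p at most 8.61e-07). DLGAP5 (ENSG00000126787), which stabilises microtubules near chromosomes, ranged from 7.87 to 8.71 with a median of 8.29 in DMSO at 48 h and read 6.18, 5.27 and 5.97 with nifedipine and 4.26, 5.56 and 5.99 with piperonyl butoxide. Neither group overlapped DMSO, and DLGAP5 fell 5.63-fold and 8.17-fold (adjusted p at most 2.25e-06), as it fell 4.02-fold with methapyrilene (adjusted p = 1.01e-04). With the low-spread arrays left out, DLGAP5 fell 5.40-fold with piperonyl butoxide.

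PRC1 (ENSG00000198901), which bundles microtubules of the central spindle, fell at 48 h with all 4 compounds. At 24 h it was not called with all arrays, and it was called with all 4 compounds without the low-spread ones, for example 2.21-fold lower with tolbutamide (adjusted p = 1.04e-05). With piperonyl butoxide at 48 h its arrays read 6.20, 8.78 and 8.71, where DMSO ranged from 8.66 to 9.18 with a median of 9.02. The low-spread array alone lay below DMSO, and the 2.11-fold decrease (adjusted p = 0.0145) was 1.11-fold without the low-spread arrays (adjusted p = 0.568). With methapyrilene, tolbutamide and nifedipine the decreases were 3.52-fold, 2.95-fold and 3.91-fold, and that with tolbutamide was lost without its replicate 1 (adjusted p = 0.0774) or 2 (adjusted p = 0.118). ASPM (ENSG00000066279), a spindle pole protein, HMMR (ENSG00000072571), which anchors the spindle, and NUSAP1 (ENSG00000137804), a microtubule-binding protein, made up the group. ASPM fell 4.66-fold with piperonyl butoxide at 24 h (adjusted p = 1.24e-10). HMMR was called in 5 comparisons and NUSAP1 in 8, with decreases of up to 4.74-fold and 4.22-fold, both with piperonyl butoxide at 48 h. Without the low-spread arrays that of HMMR was 2.90-fold. All 6 factors fell with each of the 4 compounds at 48 h, 5 with piperonyl butoxide, 3 with nifedipine and tolbutamide and 2 with methapyrilene at 24 h.

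The calls of the cytokinesis genes changed with the arrays kept in the fit. ANLN (ENSG00000011426), anillin, the scaffold of the contractile ring, ranged from 7.63 to 8.93 with a median of 8.35 in DMSO at 48 h and read 7.06, 5.92 and 6.69 with methapyrilene, 6.83, 6.52 and 6.66 with tolbutamide, 6.93, 5.77 and 6.07 with nifedipine and 4.64, 6.82 and 6.92 with piperonyl butoxide. All 12 arrays lay below DMSO, and ANLN fell 3.23-fold, 2.98-fold, 3.97-fold and 4.35-fold (SE 0.43 in each, adjusted p at most 0.0357), the last 2.22-fold without the low-spread arrays. Its call with tolbutamide was lost with any 1 of the 3 tolbutamide arrays left out (adjusted p 0.133 to 0.179), and that with methapyrilene without replicate 2 (adjusted p = 0.157). ECT2 (ENSG00000114346), the exchange factor that positions the ring, and CEP55 (ENSG00000138180), which recruits the machinery of final separation, were called with nifedipine and piperonyl butoxide at 48 h with all arrays. Without the low-spread arrays they were called with methapyrilene, tolbutamide and nifedipine at 48 h and with tolbutamide and nifedipine at 24 h, ECT2 also with methapyrilene at 24 h, and neither with piperonyl butoxide. ECT2 read 5.42, 8.68 and 8.23 with piperonyl butoxide where DMSO ranged from 8.28 to 8.90 with a median of 8.59. The low-spread array stood far below the other 2, and the 2.18-fold decrease (adjusted p = 0.0258) became a log2 difference of 0.00 without the low-spread arrays. The same held for CEP55 (2.24-fold lower, and 1.20-fold without them, adjusted p = 0.440).

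The standard errors of ANLN, ECT2 and CEP55 were among the largest of the members, which ranged from 0.12 to 0.47 in each comparison with DMSO. At 24 h, with all arrays, 1 of these 3 genes was called, ANLN with piperonyl butoxide (3.09-fold lower, adjusted p = 0.00331, and 0.0831 without replicate 2). Without the low-spread arrays all 3 were called with nifedipine and tolbutamide at 24 h, ANLN 2.15-fold and 2.61-fold lower (adjusted p at most 2.53e-04).

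The genes of chromosome structure included MKI67 (ENSG00000148773), the proliferation marker Ki-67 that coats mitotic chromosomes, which fell in all 8 comparisons, although not at 24 h with methapyrilene once replicate 1 was left out (adjusted p = 0.0734). It ranged from 7.17 to 7.72 with a median of 7.46 in DMSO at 48 h and read 6.45, 5.75 and 6.39 with methapyrilene, 6.16, 6.16 and 6.71 with tolbutamide, 6.02, 5.96 and 5.95 with nifedipine and 6.32, 6.12 and 5.92 with piperonyl butoxide. No group overlapped DMSO, and the decreases were 2.43-fold, 2.19-fold, 2.83-fold and 2.56-fold (SE 0.15 in each, adjusted p at most 2.24e-06). TOP2A (ENSG00000131747), the topoisomerase that untangles sister chromatids, ranged from 10.48 to 11.27 with a median of 10.95 in DMSO and read 9.09, 8.31 and 8.76 with nifedipine and 6.40, 8.40 and 8.34 with piperonyl butoxide. It fell 4.64-fold and 9.32-fold (adjusted p at most 8.14e-06), or 5.83-fold with piperonyl butoxide without the low-spread arrays. At 24 h TOP2A was called with piperonyl butoxide (3.57-fold lower, adjusted p = 2.85e-05) and not with nifedipine (adjusted p = 0.0532) or tolbutamide (adjusted p = 0.0551), although both were called without the low-spread arrays (2.21-fold and 2.48-fold lower).

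NCAPH (ENSG00000121152) and NCAPG (ENSG00000109805), subunits of the condensin complex that compacts chromosomes, parted under piperonyl butoxide. NCAPH ranged from 6.71 to 7.13 with a median of 7.00 in DMSO at 48 h and read 5.73, 4.70 and 5.60 with nifedipine and 6.28, 6.79 and 7.11 with piperonyl butoxide. The nifedipine arrays lay below DMSO (3.07-fold, adjusted p = 9.25e-07), and those of piperonyl butoxide overlapped it (log2 difference -0.24, 95% interval -0.67 to 0.20). NCAPG fell 4.23-fold and 3.93-fold with these compounds at 48 h and 3.73-fold with methapyrilene (adjusted p at most 1.48e-05). All 4 genes of the group fell with methapyrilene, tolbutamide and nifedipine at 48 h and with piperonyl butoxide at 24 h, 3 with piperonyl butoxide at 48 h and with nifedipine and tolbutamide at 24 h, and 2 with methapyrilene at 24 h.

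Across the 8 comparisons 14 members were called every time: AURKB, BIRC5, CDCA3, CENPA, CENPE, FOXM1, KIF20A, KIF23, KIF2C, MELK, MKI67, NUSAP1, TPX2 and UBE2C. The share of all rows called in all 8 is not given, so this count has no background beside it. Another 9 were called in 4 or fewer with all arrays (BUB1, CEP55, ECT2, KIF14, MAD2L1, NEK2, PBK, PLK1 and PRC1), but none of them in fewer than 5 without the low-spread arrays. Among these 4 compounds, the members spread most under piperonyl butoxide, and the spread over all rows is not given beside theirs. The SD of the log2 difference over the 44 genes at 48 h was 0.26 with tolbutamide, 0.33 with methapyrilene, 0.41 with nifedipine and 0.85 with piperonyl butoxide (0.82 without the low-spread arrays).

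Whether members responded unlike under piperonyl butoxide and nifedipine was tested directly, in a comparison of the 2 compounds added after their values had been seen. Relative to nifedipine, 5 members (11.4%) were lower and 1 (2.27%) higher with piperonyl butoxide at 24 h, when 13.0% and 11.4% of all rows were called lower and higher. At 48 h 5 (11.4%) were lower and 5 (11.4%) higher, when 15.5% and 19.3% of all rows were. With all arrays, each of these shares of members lay below that of all rows, so the members as a group did not stand out. At 48 h this did not hold without the low-spread arrays, where 15 members were higher and 1 lower. Their median difference was then 0.39, and that of all rows 0.03. KIF11 was lower at both times, 3.26-fold (SE 0.39, adjusted p = 0.00108) and 3.01-fold (adjusted p = 0.00170). CDC20 was higher at both times, by 0.69 (adjusted p = 0.00470) and 1.14 on the log2 scale (adjusted p = 5.54e-06). ASPM was lower at both times as well (-1.29 and -0.79, adjusted p = 1.28e-04 and 0.0130), but not called at 48 h without the low-spread arrays (adjusted p = 0.0565).

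At 24 h SPC25 (-1.31), NDC80 (-1.17) and KIF20A (-0.47) were also lower with piperonyl butoxide, KIF20A not without the low-spread arrays (adjusted p = 0.130) or after quantile normalization (adjusted p = 0.185). With no replicate block neither NDC80 (adjusted p = 0.0626) nor KIF20A (adjusted p = 0.0870) was called. At 48 h NCAPH (1.38, adjusted p = 2.91e-05), MELK (1.02), TPX2 (0.67) and KIF2C (0.50) were higher. CCNB1, TOP2A and AURKA were lower at 48 h (-1.05, -1.01 and -0.78), but without the low-spread arrays their differences were -0.52, -0.33 and -0.14 and no longer called. Without those arrays 4 members were lower and 4 higher at 24 h, and 1 lower (KIF11) and 15 higher at 48 h. Of all rows, 26.2% were then called at 24 h (13.7% lower) and 29.5% at 48 h (15.0% lower). KIF11, CDC20, NCAPH, MELK, TPX2 and KIF2C kept their direction and their call at 48 h in both settings. Single arrays moved the counts, and the shares of all rows in those fits are not given here. At 24 h the 6 called members became 3 without nifedipine replicate 2, 10 without nifedipine replicate 3 or NNK replicate 2, 16 without piperonyl butoxide replicate 3, and 12 without the low-spread array of piperonyl butoxide at 48 h, and at 48 h the 10 became 5 without nifedipine replicate 1. ANLN was the 1 named member to turn its direction with a call in either fit. It went from -0.13 with all arrays at 48 h to 0.84 without the low-spread ones (adjusted p = 0.0154 by limma). Turns of members called in neither fit are not counted here.

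**Figure D5:**
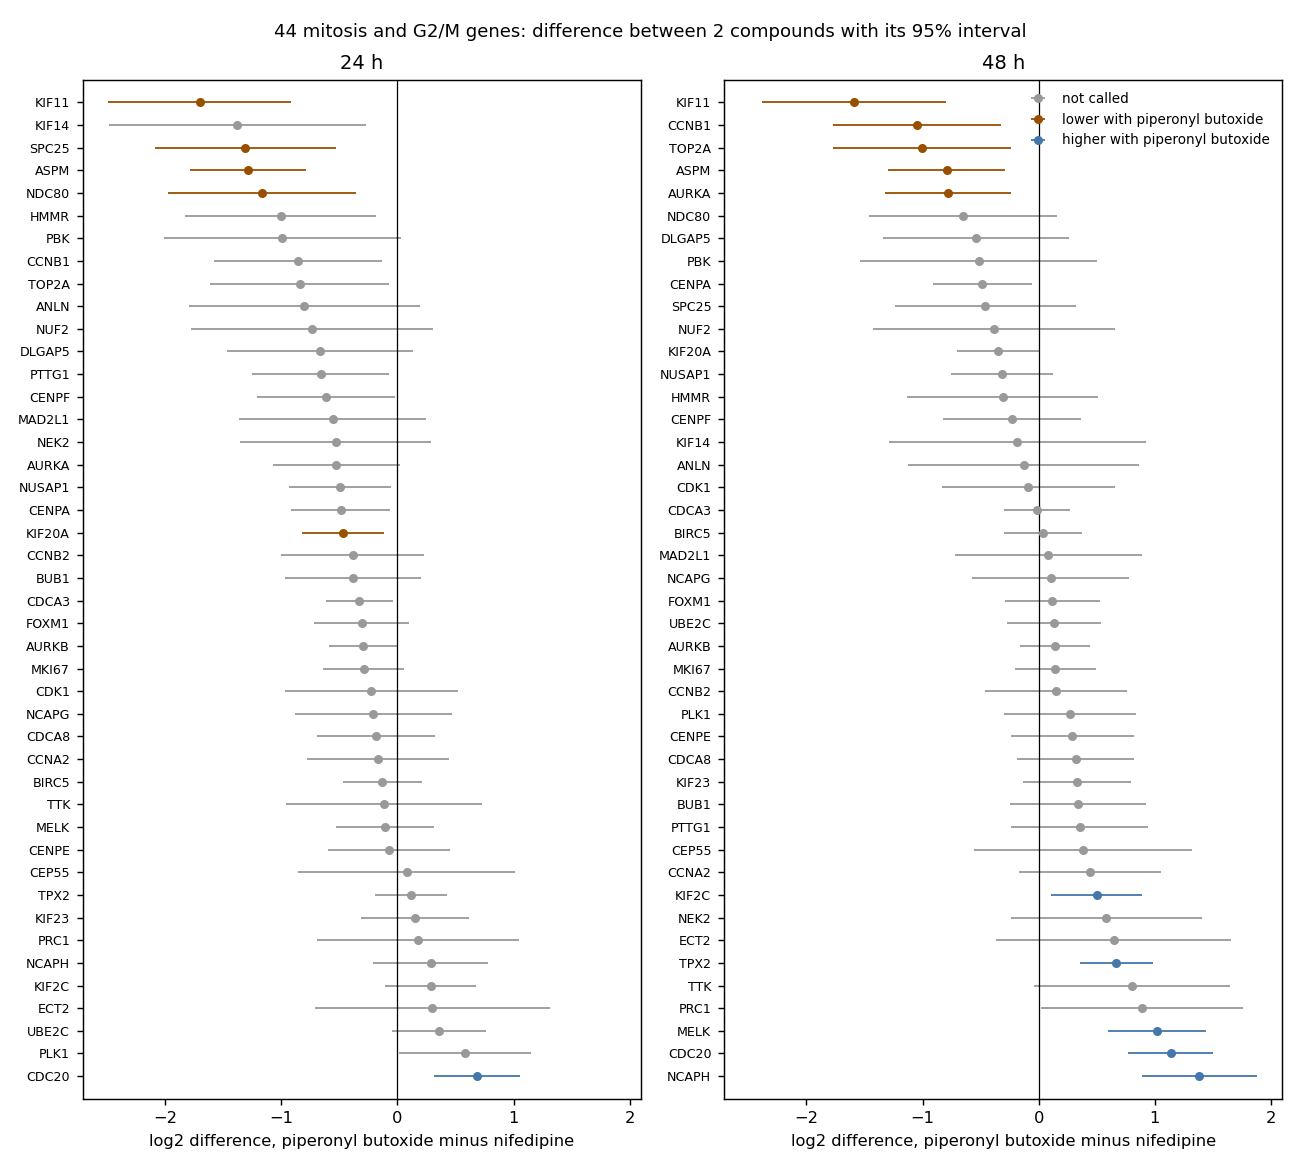
Log2 difference between piperonyl butoxide and nifedipine (horizontal axis) for each of the 44 genes (rows, ordered by the difference) at 24 h (left) and 48 h (right); points are estimates of the limma fit and bars their 95% intervals, brown where lower and blue where higher at an adjusted p under 0.05. KIF11 stands lowest at both times (-1.70 and -1.59), CDC20 is called higher at both, and NCAPH is highest at 48 h (1.38).

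With 2-nitrofluorene, NNK and clonidine no member was called at either time by limma, and the call rates of all rows were 0.0499% and 0.0698% lower for 2-nitrofluorene, 0.0% at both times for NNK, and 0.0% and 0.115% for clonidine. The members' median differences were -0.06 at 24 h and 0.05 at 48 h with 2-nitrofluorene, -0.16 and -0.21 with NNK and 0.12 and -0.33 with clonidine. At an unadjusted p under 0.05 there were 3 and 1 members for 2-nitrofluorene (3.55% and 3.69% of all rows), 3 and 1 for NNK (7.14% and 1.46%), and 0 and 7 for clonidine (2.18% and 5.93%). Without the low-spread arrays these member counts were 7 and 1 for 2-nitrofluorene, 0 and 7 for NNK, and 0 and 21 for clonidine. The shares of all rows at this threshold in that fit are not given, so these counts have no background beside them. At an adjusted p under 0.05 by limma, the rows called for clonidine at 48 h also rose without those arrays, from 77 to 344. Without the low-spread arrays the members' medians at 24 h were -0.17 with 2-nitrofluorene, 0.15 with NNK and -0.03 with clonidine. The 95% intervals are those of single genes in the fit with all arrays, not adjusted for the number of members. They lay above a log2 difference of -1, which is a 2-fold decrease, for all 44 members with 2-nitrofluorene at both times and with clonidine at 24 h, but for 36 and 30 members with NNK and 28 with clonidine at 48 h.

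The mean over the members was 9.09 ± 0.05 (SD, n = 3) with 2-nitrofluorene at 24 h and 8.24 ± 0.24 at 48 h. With NNK the 3 arrays at 24 h had means of 9.39, 8.10 and 9.42, of which 8.10 is the low-spread array, and at 48 h the mean was 7.93 ± 0.03 (SD, n = 3). Without the low-spread arrays the median member difference with NNK at 24 h was 0.15. With clonidine at 48 h the arrays had means of 7.52, 7.80 and 8.17, the last of them within the DMSO range of 8.05 to 8.39. Members lay lower than DMSO for 42 of 44 there, with SPC25 lowest (-0.74, 95% interval -1.41 to -0.06, adjusted p = 0.723). Without the low-spread arrays 1 member, PTTG1, was called (-0.71, adjusted p = 0.0134), when 0.683% of all rows were called lower.

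Although more members were called at 48 h than at 24 h with methapyrilene, tolbutamide and nifedipine, the difference between the times passed the test for no member with any of the 7 compounds. All rows were called in this test at rates of 0.0897% for methapyrilene, 1.07% for piperonyl butoxide, 0.0399% for nifedipine, 0.0299% for tolbutamide, 0.00499% for clonidine and 0.0% for both 2-nitrofluorene and NNK. At an unadjusted p under 0.05 by limma there were 22 members for methapyrilene, 11 for nifedipine, 6 for piperonyl butoxide and 4 for tolbutamide. There were 2 for clonidine, 1 for NNK and 0 for 2-nitrofluorene. Of all 20056 rows, 779, 1826, 2687, 368, 320, 603 and 141 passed this threshold, in the same order. For piperonyl butoxide 6 of 44 members was thus near the share of all rows. Without the low-spread arrays the member counts were 28 for methapyrilene and 18 for nifedipine. The shares of all rows at this threshold in that fit are not given. KIF20A came nearest with methapyrilene, at -0.92 (SE 0.21, adjusted p = 0.0983). When the low-spread arrays were left out, 4 members passed with methapyrilene (0.558% of all rows), all with a larger decrease at 48 h: KIF20A (-0.92), CCNB2 (-0.94), MELK (-0.89) and AURKA (-0.78). For piperonyl butoxide 1 member then passed, CDCA8 (0.99, adjusted p = 0.00709), with a smaller decrease at 48 h. As 1.95% of all rows passed there, 1 of 44 members was near the share of all rows. Leaving out a single array gave 1 call for methapyrilene (without piperonyl butoxide replicate 2 at 48 h) and 1 for piperonyl butoxide (without its replicate 1 or 2 at 48 h), and the shares of all rows in those fits are not given.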

How the data were processed

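RNA of 54 cultures was measured on single-channel Affymetrix 3′ arrays, one array a culture. The deposited values are log2 expression levels per Ensembl gene ID, background-corrected, normalized and summarised by RMA per the submitters' processing notes; the version of the probe annotation was not given in the sources used here, and scanner files were not used. The number of arrays limits the precision, since arrays have no read depth. Gene names come from the list of members given with their gene IDs; the reference tables used here did not pair the other rows with names, so lists of other pathways and liver markers were not run, and the HepG2 label was not checked against markers. The row of BUB1B was not analysed here. The members and lists were chosen with earlier results of these data known.

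Differences were fitted on the deposited log2 values of all 20056 rows with limma 3.58.1 in R 4.3.3 (lmFit and eBayes), with 16 groups and the replicate number within each time as a block (34 residual degrees of freedom), and Benjamini-Hochberg adjusted p-values per comparison. The labels name matching controls by number: arrays of the same number deviated together with a mean correlation of 0.242 at 24 h and 0.205 at 48 h over 105 pairs each, against -0.111 and -0.101 for different numbers. The comparison of times in DMSO used the mean of both exposures per number, 3 against 3, without a block. Replicates are labelled as biological, and how their cultures were separated was not used here.

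Genes named are the 6 called members with the largest difference in each comparison, plus a fixed set of 17, others being named where a count is described. In data simulated on these arrays, a log2 change of 1 was recovered for 85.7% of genes for methapyrilene at 24 h, 89.1% for nifedipine at 48 h, 77.8% for NNK at 24 h and 61.2% for DMSO over time. The simulated noise was drawn independently for each gene and array and held no low-spread array, so these rates need not hold for the real arrays. In the real DMSO comparison over time, 3 of 44 members were called at a median difference of -0.97. Alternatives tried were no block, arrays centred on their median, quantile normalization, eBayes with trend and robust options, the lowest 0.25 of rows left out, the 4 low-spread arrays left out, and each array left out in turn. The contrast of piperonyl butoxide with nifedipine was added after seeing the data. Motifs were searched by exact letters in RefSeq promoter windows.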

Additional observations from a re-analysis of the deposited data

Results flagged for a closer look

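In sets of 6 DMSO arrays, the highest or lowest value was compared with its nearest neighbour relative to the whole range (Dixon's test), over 68 sets, and 12 values stood apart. The sets covered part of the members only, so that values of other members may stand apart as well. Chance flags about 1 in 20 independent sets, and genes measured on the same arrays are not independent. Of the 12, 10 belonged to the low-spread DMSO array at 24 h (exposure 2, replicate 2). They were its mean over the 44 members (8.482, where the other 5 lay from 9.20 to 9.41) and its values of AURKA (10.135), CCNA2 (8.859), CDK1 (9.852), FOXM1 (7.987), KIF11 (7.892), NDC80 (6.648), NUF2 (6.727), PBK (8.568) and PRC1 (8.968). At 48 h ASPM stood apart at 6.561 in exposure 1 replicate 3 (others 7.36 to 7.72), and NUF2 at 7.231 in exposure 1 replicate 1 (others 7.92 to 8.14). The part of the narrow spread of that array in these values was not tested.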

How the results depend on the processing

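Without the 4 low-spread arrays the count of called members moved by over 1.5 times in these comparisons: 38 for methapyrilene at 24 h, 44 for nifedipine at 24 h, 43 for tolbutamide at 24 h, 30 for DMSO at 48 against 24 h, 16 for piperonyl butoxide against nifedipine at 48 h, 4 and 1 for the difference between times of methapyrilene and piperonyl butoxide, and 1 for clonidine at 48 h. The comparison of times in DMSO gave 0 called members with a replicate block, 27 with all 54 arrays in the fit, 1 with centred arrays, 6 after quantile normalization, 5 without the lowest 0.25 of rows and 0 with trend and robust options; the cause was not tested. ANLN for piperonyl butoxide against nifedipine at 48 h reversed to 0.838 without the low-spread arrays. With 1 array left out, counts ranged from 10 to 21 and 33 to 43 for methapyrilene at 24 and 48 h, 24 to 33 and 39 to 44 for nifedipine, 16 to 30 and 26 to 41 for tolbutamide, 34 to 42 and 34 to 40 for piperonyl butoxide, 0 to 30 for DMSO over time, 0 to 1 for the time differences of methapyrilene and piperonyl butoxide, 3 to 16 and 5 to 12 for piperonyl butoxide against nifedipine, and 0 to 0 for the others. Apart from the fit without the 4 low-spread arrays, the shares of all rows called in these alternative fits are not given. The member counts there have no background beside them. Of the named gene values, fitting with no replicate block left 195 on the same side of the threshold and took 9 past it (FOXM1 with methapyrilene at 24 h, PLK1 with methapyrilene at 48 h, ANLN and SPC25 with tolbutamide at 48 h, BUB1 with tolbutamide, nifedipine and piperonyl butoxide at 48 h, and KIF20A and NDC80 for piperonyl butoxide against nifedipine at 24 h), and no call of a member turned its direction under it. Centring kept 207, quantile normalization 210, trend and robust options 218 and the filter on low rows 216. With 3 arrays a group, small differences in the noisier members are beyond what these arrays resolve.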
